A study of Mus musculus with 3 samples.

Results

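The tumour necrosis factor (TNF) receptor and ligand superfamily was examined in cultured mouse pro-B cells with and without Pax5. It comprised 36 listed genes, 22 receptors and 14 ligands, of the 27179 genes in the deposited count tables. All 36 were matched by Entrez number to their symbols, and 22 of them passed the filter on low counts. The members were grouped by role into the BAFF and APRIL system, the death receptors with their decoys and ligands, the costimulators with CD40, and the remaining receptors and ligands.

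Ligands of this superfamily are mostly trimeric membrane proteins, some of them shed by proteases, that cluster their receptors on a neighbouring cell. Receptors that carry a death domain recruit FADD or TRADD and can activate caspase-8, and the others bind TRAF adaptors that feed the canonical and alternative NF-κB pathways. In the B lineage the family is best known for the receptors of BAFF and APRIL and for CD40, which receives T-cell help. BAFF receptor receives survival signals in maturing B cells, and TACI binds both BAFF and APRIL.

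The study held 2 independently prepared Pax5-/- samples from male mice and 1 wildtype sample from a female mouse. All came from C57BL/6 bone marrow as B220+ cells expanded on OP9, a mouse stromal feeder line. For the Pax5-/- samples the labels state that IgM+ cells were removed with magnetic beads at day 7, and for the wildtype they state neither a day nor a removal. Sex, the stated depletion and genotype therefore cannot be told apart in any difference given here, and the wildtype has no replicate.

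Totals lay between 6487846 and 6697879 counts per library, so that a count of 0 allows up to 3 counts, or 0.44 to 0.467 on the TMM-scaled counts-per-million (CPM) scale. The log2 fold change of Pax5 itself was -1.78 (SE 0.19, adjusted p = 0.0107 by edgeR). All 11 pro-B markers passed the filter, with Il7r, Rag1, Dntt and Kit called higher in Pax5-/- and Vpreb1, Ebf1, Cd79a and Cd79b among those called lower. Markers of immature and mature B cells summed to 86.0 CPM in Pax5-/- sample 1, 63.2 CPM in sample 2 and 1497 CPM in the wildtype. T-cell markers summed to 5.40, 7.19 and 3.12 CPM and stromal markers to 8.94, 6.31 and 17.4 CPM. The Pax5-/- samples also stood apart from each other in 10 interferon-stimulated genes, which summed to 2666 and 149 CPM, with 630 CPM in the wildtype.

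Of the 22 members tested, 4 were called higher and 2 lower in Pax5-/-, and 16 were not called (edgeR's quasi-likelihood test, at a p adjusted after Benjamini and Hochberg of less than 0.05). Over all 11783 genes tested, 18.1% were called, 9.53% higher and 8.55% lower. Those that rose were Cd27, Tnfrsf1a, the RANK ligand gene Tnfsf11 and the decoy receptor gene Tnfrsf26, and those that fell were the BAFF receptor gene Tnfrsf13c and the lymphotoxin beta gene Ltb. The median log2 fold change of the tested members was 0.093, beside 0.0074 for all tested genes. In these bulk samples fewer cells of a type and less RNA per cell cannot be told apart.

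**Figure D1:**
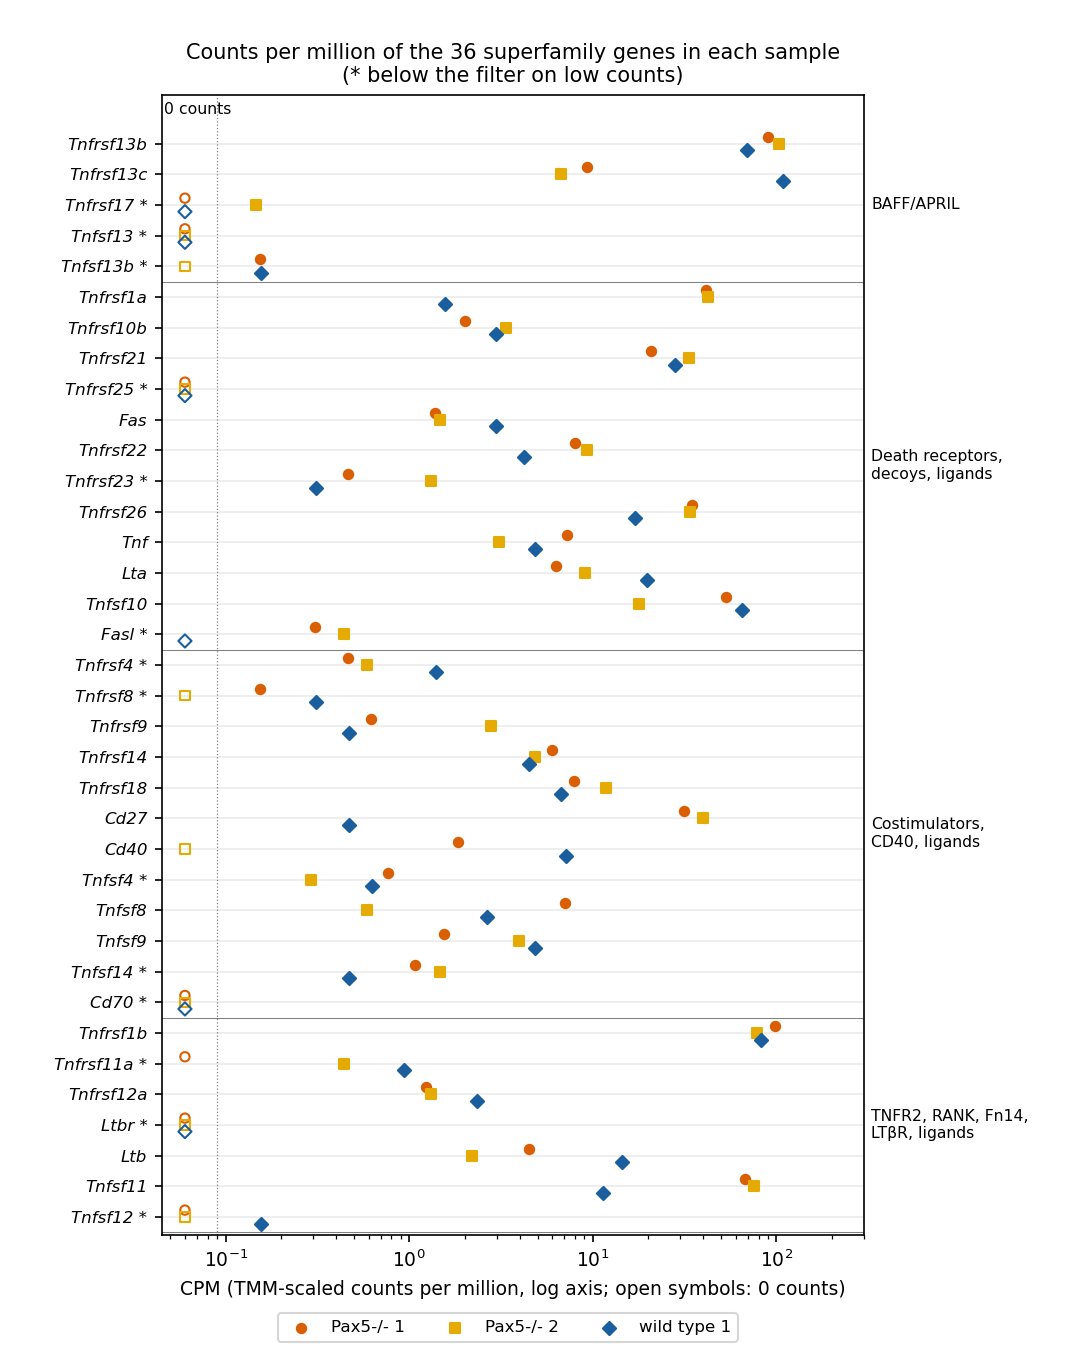
TMM-scaled CPM (log axis) of the 36 members in Pax5-/- sample 1 (circles), Pax5-/- sample 2 (squares) and the wildtype sample (diamonds), in rows by role, with open symbols at the left edge for 0 counts and an asterisk for the 14 members below the filter. Cd27 and Tnfrsf1a stand far to the right of the wildtype in both Pax5-/- samples, at 31.4 and 39.6 CPM and at 41.5 and 42.3 CPM, and Tnfrsf13c far to the left, at 9.25 and 6.75 against 109 CPM.

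The promoters of 5 called members are shown. Of the 36 members, 28 had an entry in the RefSeq promoter table (GRCm38.p6, the assembly that mm10 names), Tnfrsf26 not among them. Each run gives the 250 bases before the annotated start, 5′ to 3′ on the gene's strand, with capitals for any match to the motifs named after them. The window of Cd27 is chr6:125237028-125237277 (minus strand), that of Tnfrsf1a chr6:125349473-125349722 (plus strand), that of Tnfsf11 chr14:78308044-78308293 (minus strand), that of Tnfrsf13c chr15:82224381-82224630 (minus strand) and that of Ltb chr17:35194257-35194506 (plus strand).
Cd27: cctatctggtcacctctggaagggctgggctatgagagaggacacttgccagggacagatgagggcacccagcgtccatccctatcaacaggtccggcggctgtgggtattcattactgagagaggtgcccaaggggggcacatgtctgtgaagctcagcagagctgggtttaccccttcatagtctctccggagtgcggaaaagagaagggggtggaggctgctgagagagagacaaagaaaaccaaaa
Tnfrsf1a: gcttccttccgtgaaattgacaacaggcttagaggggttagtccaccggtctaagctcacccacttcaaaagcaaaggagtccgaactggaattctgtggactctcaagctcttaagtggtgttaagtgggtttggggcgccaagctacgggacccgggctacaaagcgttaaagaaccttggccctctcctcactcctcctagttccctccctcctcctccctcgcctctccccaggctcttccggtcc
Tnfsf11: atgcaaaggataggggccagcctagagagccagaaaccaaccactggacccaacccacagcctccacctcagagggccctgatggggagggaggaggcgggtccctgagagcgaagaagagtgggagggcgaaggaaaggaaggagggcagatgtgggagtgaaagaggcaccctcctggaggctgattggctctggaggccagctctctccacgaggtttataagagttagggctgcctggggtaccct
Tnfrsf13c: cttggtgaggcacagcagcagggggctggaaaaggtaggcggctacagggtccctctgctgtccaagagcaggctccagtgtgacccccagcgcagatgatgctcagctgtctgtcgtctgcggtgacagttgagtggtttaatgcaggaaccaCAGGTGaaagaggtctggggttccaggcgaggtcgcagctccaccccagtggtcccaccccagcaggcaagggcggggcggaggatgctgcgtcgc
Ltb: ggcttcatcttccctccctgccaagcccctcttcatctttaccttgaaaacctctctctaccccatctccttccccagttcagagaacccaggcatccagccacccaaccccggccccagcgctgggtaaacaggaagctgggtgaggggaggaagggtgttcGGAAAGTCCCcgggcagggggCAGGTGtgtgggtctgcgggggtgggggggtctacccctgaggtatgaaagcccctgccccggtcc

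Both strands of these windows were searched for 5 motifs: the EBF1 motif (TCCC and GGGA, 2 bases apart), the E2A-type E-box CAGGTG, the interferon regulatory factor motif (GAAA repeated, 2 bases apart), the PU.1-type motif GAGGAAGT and the NF-κB consensus. The E-box stood 96 to 91 bases before the start of Tnfrsf13c and 66 to 61 bases before that of Ltb. It was present in 8 of the 31 promoters listed for the 28 member genes and in 17.2% of all 32851 promoters. The other members with it, Tnfrsf11a, Tnfrsf18, Tnfrsf1b, Tnfrsf8, Tnfsf10 and Tnfsf14, were not called or were below the filter. An NF-κB consensus match lay 87 to 78 bases before the start of Ltb, and 7.25% of all promoters held one. Of the 31 member promoters 4 held one. The others belonged to Tnfrsf25, Tnfrsf8 and Tnfrsf9, which were not called or were below the filter. None of the 5 motifs occurred in the windows of Cd27, Tnfrsf1a and Tnfsf11. The interferon regulatory factor motif, in 2.98% of all promoters, occurred in Tnfrsf14, Tnfrsf17, Tnfrsf1b and Tnfsf13b and was not found in the window of Tnfsf10. The EBF1 and PU.1-type motifs, in 0.779% and 2.44% of all promoters, matched in 0 of the 31 member promoters. These matches are letters in a window and not measured binding sites.

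The receptors of BAFF and APRIL, cytokines that sustain maturing B cells and plasma cells, were divided. Tnfrsf13c, which encodes BAFF receptor (chr15:82221742-82224380), was at 9.25 CPM in Pax5-/- sample 1, 6.75 CPM in sample 2 and 109 CPM in the wildtype. Values are given in this order throughout. Both Pax5-/- samples lay far below the wildtype and close to each other. The log2 fold change was -3.77 (SE 0.22, adjusted p = 0.00404 by edgeR). The gene was also called lower in all 9 alternative analyses. Markers of immature and mature B cells were lower in the same samples, with 10 of 12 tested and all 10 called lower, and Ms4a1, Iglc1 and Iglc2 at 0 counts in both Pax5-/- samples. Their part in the Tnfrsf13c difference was not tested.

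Tnfrsf13b, which encodes TACI, a receptor for both cytokines, stood at 89.6 and 104 CPM in Pax5-/- and 69.3 CPM in the wildtype. The wildtype was the lowest of the 3, and the gene was not called (log2 fold change 0.48, SE 0.17, adjusted p = 0.135). Its annotated span shares 1390 bases with Usp22, a ubiquitin protease gene on the opposite strand that was called higher (log2 fold change 0.70, SE 0.14, adjusted p = 0.0428). Without a stated strand setting, reads from that stretch cannot be assigned to either gene. Tnfrsf17, which encodes BCMA, the receptor typical of plasma cells, had 0, 1 and 0 counts. Of the 5 plasma cell markers 1 was called higher and 2 lower in Pax5-/-. Jchain was at 1848 and 2068 CPM against 2.96 CPM, Sdc1 at 0.925 and 1.61 CPM against 30.1 CPM and Irf4 at 14.8 and 19.1 CPM against 335 CPM. Prdm1 and Xbp1, with log2 fold changes of -2.92 and -0.54, were not called.

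The ligands were barely counted in these cells. The BAFF gene Tnfsf13b had 1, 0 and 1 counts, and the APRIL gene Tnfsf13 had none in any library. Tnfsf13 and its neighbour Tnfsf12 lie within the readthrough gene Tnfsfm13, which also had 0 counts, and reads that fall on more than 1 gene may not have been counted. The zeros of these genes are therefore uncertain.

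Among the 8 receptor genes of the death receptor group, decoys included, 6 were tested. Of these 2 were called higher, 0 lower and 4 not called, beside 9.53% higher and 8.55% lower over all tested genes. Tnfrsf1a encodes TNFR1, the widely expressed TNF receptor that carries a death domain. It was at 41.5 and 42.3 CPM in the Pax5-/- samples and at 1.56 CPM in the wildtype, from 269, 288 and 10 counts. The Pax5-/- samples nearly coincided, and the wildtype lay far below both. The log2 fold change was 4.73 (SE 0.24, adjusted p = 0.00337 by edgeR), a call held in all 9 alternatives. Macrophage and dendritic cell markers, cells that also express this receptor, summed to 38.8 and 52.5 CPM in Pax5-/- against 13.9 CPM, with 2 of 5 tested markers, Lyz2 and Siglech, called higher. Csf1r was at 1.23 and 0.587 CPM against 3.43 CPM, Cd68 at 4.93 and 3.67 CPM against 3.12 CPM and Itgax at 0.617 and 2.79 CPM against 0.156 CPM, none of them called. The macrophage gene Adgre1 had 1, 0 and 0 counts and C1qa none. The part of such cells in the Tnfrsf1a difference was not tested.

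The other death receptors showed no called change. Fas, the receptor of Fas ligand, was at 1.39 and 1.47 CPM against 2.96 CPM (log2 fold change -1.04, SE 0.50, adjusted p = 0.223). Tnfrsf10b, the mouse TRAIL receptor with a death domain, was at 2.00 and 3.37 CPM against 2.96 CPM. Tnfrsf21, which encodes DR6, was at 20.8 and 33.6 CPM against 27.9 CPM. For both genes the Pax5-/- samples lay on either side of the wildtype. Tnfrsf25, which encodes DR3, a death receptor of T cells, had no counts in any library.

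The mouse-specific decoy genes Tnfrsf22, Tnfrsf23 and Tnfrsf26 lie side by side on chromosome 7 within 78.8 kb. Tnfrsf22 and Tnfrsf23 are known to bind TRAIL without a death domain. Tnfrsf26 rose from 17.0 CPM to 34.8 and 33.9 CPM (log2 fold change 1.02, SE 0.17, adjusted p = 0.0285 by edgeR). Its call was lost with DESeq2 and with the biological coefficient of variation set to 0.4, and the adjusted p ran from 0.00463 to 0.777 over the alternatives. Tnfrsf22 was at 8.02 and 9.24 CPM against 4.21 CPM, with a log2 fold change of 1.03 of almost the same size as that of Tnfrsf26 but a larger SE of 0.33 (adjusted p = 0.108). Tnfrsf23 had 3, 9 and 2 counts and was below the filter. In all 3 genes both Pax5-/- samples were above the wildtype, but whether reads are shared between these related genes was not measured here.

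None of the 3 tested ligands of death receptors was called by edgeR, 1 had an unadjusted p under 0.05, and DESeq2 and limma-voom also called 0. Lta, the lymphotoxin alpha gene, came nearest, at 6.32 and 9.10 CPM against 19.6 CPM (log2 fold change -1.34, SE 0.30, adjusted p = 0.0550). Both Pax5-/- samples were more than 2-fold below the wildtype. Lta passed the threshold in 4 of 9 alternatives, with adjusted p from 0.0035 to 0.355. Tnf, the gene of the founding cytokine, was at 7.25 and 3.08 CPM against 4.83 CPM, so the Pax5-/- samples enclosed the wildtype. Fasl, the Fas ligand gene of cytotoxic lymphocytes, had 2, 3 and 0 counts.

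Tnfsf10, which encodes TRAIL and is a known interferon-inducible gene, was far lower in Pax5-/- sample 2 than in Pax5-/- sample 1 or the wildtype. It was at 53.0 CPM in sample 1, 17.9 CPM in sample 2 and 65.0 CPM in the wildtype. The ratio of Pax5-/- sample 1 to sample 2 was 2.96 (exact Clopper-Pearson 95% interval 2.40 to 3.67, counting error only). The gene was not called (log2 fold change -0.88, SE 0.64, adjusted p = 0.389). Interferon-stimulated genes were higher in sample 1 than in sample 2 in all 10 of 10 listed cases, from a ratio of 6.24 for Bst2 to 167 for Usp18 where both were counted, and Ifit3 and Mx1 had 0 counts in sample 2. The interferon genes were highest in Pax5-/- sample 1 and Tnfsf10 in the wildtype, and all were lowest in Pax5-/- sample 2. The part of this signal in Tnfsf10 was not tested.

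**Figure D2:**
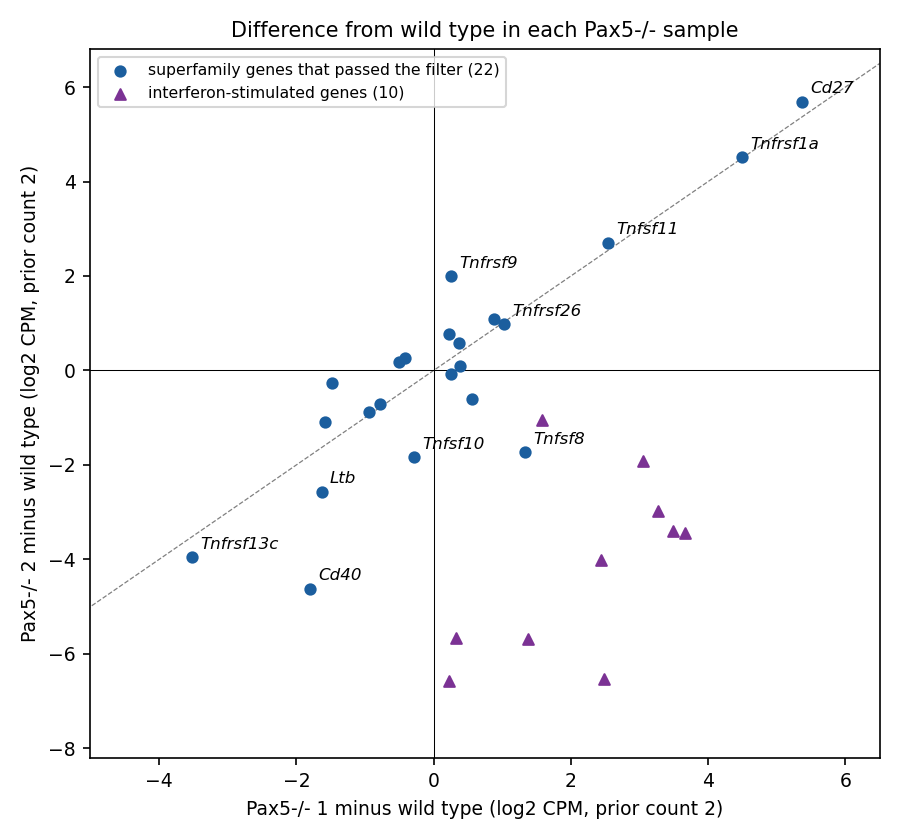
Difference from wildtype in log2 CPM (prior count 2) in Pax5-/- sample 1 (horizontal axis) and Pax5-/- sample 2 (vertical axis) for the 22 tested members (circles) and 10 interferon-stimulated genes (triangles); the dashed line marks equal differences. Cd27, Tnfrsf1a, Tnfsf11, Tnfrsf26 and Tnfrsf13c lie near the line, while Tnfsf8 (1.32 and -1.73) lies on the side of the interferon genes, all of which are above 0 in sample 1 and below 0 in sample 2.

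Cd27 gave the largest fold change of the costimulatory receptors. CD27, the receptor of CD70, is expressed on T cells, memory B cells and early haematopoietic and lymphoid progenitors. The gene (chr6:125232620-125237136) was at 31.4 and 39.6 CPM in the Pax5-/- samples and 0.467 CPM in the wildtype, from 204, 270 and 3 counts. The wildtype value sat at the limit that a count of 0 allows, and both Pax5-/- samples were far above it. The pooled ratio of Pax5-/- to wildtype was 76.2 (exact Clopper-Pearson 95% interval 25.9 to 371, counting error only). The fitted log2 fold change was 6.19 (SE 0.40, adjusted p = 0.00468 by edgeR), and the call was held in all 9 alternatives. The T-cell genes Cd3d, Cd3e, Cd3g, Cd4, Cd8a, Cd8b1 and Bcl11b were below the filter, with Cd3g and Bcl11b at 0 counts in both Pax5-/- samples. The remaining T-cell marker, Trac, was at 4.47 and 6.31 CPM against 1.09 CPM and was not called (adjusted p = 0.0605). Natural killer cell markers summed to 8.94, 3.08 and 2.65 CPM. Of these, Gzma had 34, 12 and 0 counts, Klrb1c 23, 9 and 7 and Prf1 1, 0 and 8, Ncr1 and Eomes were at 0 in both Pax5-/- samples, and Tbx21 had none. The part of such cells in the Cd27 difference was not tested. Cd70, the gene of the only known CD27 ligand, had no counts in any library.

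Of the 7 receptor genes of the costimulatory group, 5 were tested, and Cd27 was the only 1 called, beside 18.1% of all tested genes. Cd40, which encodes the receptor of CD40 ligand, was at 1.85 and 0 CPM in Pax5-/- and 7.17 CPM in the wildtype, from 12, 0 and 46 counts. Both Pax5-/- samples were more than 2-fold below the wildtype but far apart from each other. The adjusted p was 0.159 with an SE of 1.16 on a log2 fold change of -2.95. Among alternatives it ran from 0.00365 to 0.793, and the gene passed only with the biological coefficient of variation set to 0.4.

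The remaining costimulatory receptors were low throughout. Tnfrsf18, which encodes GITR, a receptor of regulatory and activated T cells, was at 7.86 and 11.7 CPM against 6.70 CPM (adjusted p = 0.367). Tnfrsf14, which encodes HVEM, a partner of LIGHT and BTLA, was at 6.01 and 4.84 CPM against 4.52 CPM. Tnfrsf9, the 4-1BB gene, had 4, 19 and 3 counts, with a pooled ratio of 3.70 (exact 95% counting interval 1.12 to 19.2) and an adjusted p of 0.378. Tnfrsf4, which encodes OX40, had 3, 4 and 9 counts and Tnfrsf8, the CD30 gene, had 1, 0 and 2.

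Of the 5 costimulatory ligand genes, 2 were tested and 0 were called by edgeR, DESeq2 or limma-voom, with 0 at an unadjusted p under 0.05. Tnfsf8, the CD30 ligand gene, was at 7.09 CPM in Pax5-/- sample 1, 0.587 CPM in sample 2 and 2.65 CPM in the wildtype. The Pax5-/- samples thus lay on opposite sides of the wildtype, 12.1-fold apart (exact 95% counting interval 4.41 to 46.2). Tnfsf9, the 4-1BB ligand gene, was at 1.54 and 3.96 CPM against 4.83 CPM. The OX40 ligand gene Tnfsf4 had 5, 2 and 4 counts and Tnfsf14, which encodes LIGHT, had 7, 10 and 3.

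Tnfsf11 was the member ligand that rose. It encodes RANK ligand, the cytokine of osteoclast formation, which is also made by lymphocytes and stromal cells. The gene (chr14:78277446-78308043) was at 67.4 and 75.9 CPM in the Pax5-/- samples and 11.4 CPM in the wildtype. Both Pax5-/- samples were well above the wildtype, with a mean of 71.6 ± 6.00 CPM (SD, n = 2). The log2 fold change was 2.65 (SE 0.19, adjusted p = 0.00515 by edgeR), held in all 9 alternatives. Of the 8 stromal markers 4 were tested and 0 were called. Col1a1 was at 1.85 and 0.880 CPM against 3.58 CPM and Col1a2 at 0.462 and 1.61 CPM against 2.65 CPM. Cxcl12 was also lower, at 2.77 and 1.03 CPM against 9.35 CPM. Pdgfrb went the other way, at 2.31 and 2.64 CPM against 0.623 CPM, and Dcn had no counts in any library. The part of feeder cells was not tested. The receptor gene Tnfrsf11a, which encodes RANK, had 0, 3 and 6 counts.

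Ltb encodes lymphotoxin beta, which anchors lymphotoxin alpha at the surface in a complex that signals through the lymphotoxin beta receptor. It was at 4.47 and 2.20 CPM in the Pax5-/- samples and 14.5 CPM in the wildtype, from 29, 15 and 93 counts. The wildtype was the highest of the 3, and the log2 fold change was -2.12 (SE 0.46, adjusted p = 0.0495 by edgeR). The call was lost with DESeq2 and with library size alone, and adjusted p ran from 0.000333 to 0.0626 over the alternatives. Ltb, Tnf and Lta are neighbours within 11.1 kb of chromosome 17, and the values of Ltb and Lta lay below the wildtype in both Pax5-/- samples whereas those of Tnf lay on either side. Markers of later B cells and of neutrophils, which summed to 1.70, 3.81 and 67.5 CPM, were also lower in Pax5-/-, and their part was not tested.

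The receptor gene Ltbr, typical of stromal and myeloid rather than lymphoid cells, had no counts in any library. It lies on chromosome 6 between Cd27 and Tnfrsf1a, and the 3 genes together span 129.9 kb. The members on either side of it were the 2 with the largest fitted fold changes, while Ltbr stayed at or under 0.467 CPM, the highest limit that a count of 0 allows here.

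Tnfrsf1b, which encodes TNFR2, the TNF receptor of haematopoietic cells that lacks a death domain, was among the most abundant members and was not called. It was at 98.4 and 78.5 CPM in Pax5-/- and 82.7 CPM in the wildtype, which lay between them (log2 fold change 0.096, SE 0.20, adjusted p = 0.763). Tnfrsf12a, which encodes the TWEAK receptor Fn14, was at 1.23 and 1.32 CPM against 2.34 CPM (adjusted p = 0.329). The TWEAK gene Tnfsf12 had 0, 0 and 1 counts.

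**Figure D3:**
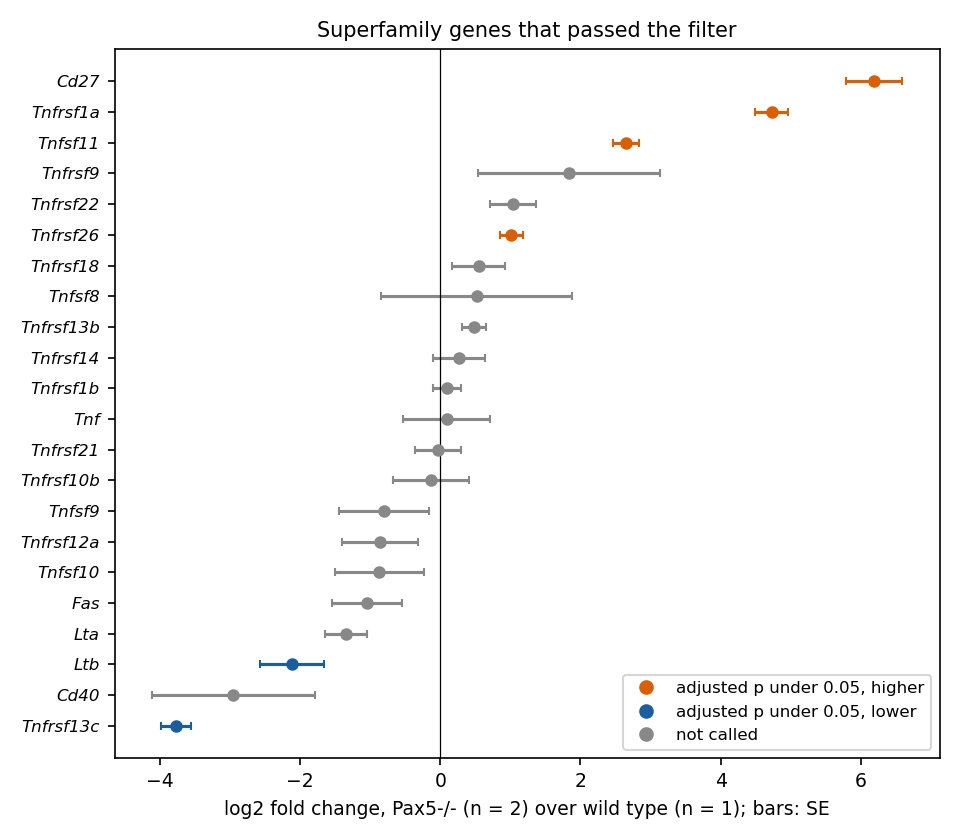
Log2 fold change of the 22 tested members, Pax5-/- (n = 2) over wildtype (n = 1), with the SE of the edgeR quasi-likelihood fit as bars and colours for the call at an adjusted p of 0.05. Cd27, Tnfrsf1a and Tnfsf11 stand apart on the right and Tnfrsf13c on the left. Cd40, Tnfrsf9 and Tnfsf8 have wide bars (SE 1.16, 1.30 and 1.36) and were not called.

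Levels of different genes were compared per kilobase of the deposited gene length. In the wildtype the highest members were Tnfrsf13b at 92.4 CPM per kilobase, Tnfrsf13c at 57.3 and Tnfrsf1b at 16.8, followed by the ligand genes Lta at 14.2, Ltb at 13.2 and Tnfsf10 at 13.1. In Pax5-/- Tnfrsf13b again came first, at 129 ± 13.4 CPM per kilobase (SD, n = 2). It was followed by Tnfsf11 at 32.0 ± 2.68, Cd27 at 22.5 ± 3.66, Tnfrsf1a at 19.4 ± 0.258 and Tnfrsf1b at 18.0 ± 2.86 CPM per kilobase. The levels of Cd27, Tnfrsf1a and Tnfrsf1b overlapped within their spread. Among the 22 tested members, Cd27 moved from place 21 in the wildtype to place 3 in Pax5-/-, Tnfrsf1a from place 20 to place 4 and Tnfrsf13c from place 2 to place 12. The level of Tnfrsf13b rests on a deposited length of 750 bases, the shortest of the tested members, and on a span shared with Usp22.

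Read library by library, 7 of 22 tested members differed from the wildtype by 2-fold or more in the same direction in both Pax5-/- samples, beside 19.3% of all tested genes. Cd27, Tnfrsf1a and Tnfsf11 were higher, beside 11.0% of all tested genes, and Tnfrsf13c, Ltb, Lta and Cd40 lower, beside 8.33%. With Pax5-/- sample 1 alone the count was 10, and with sample 2 alone 11. The Pax5-/- samples were at least 2-fold apart in 6 of 22 members, Tnf, Tnfsf10, Tnfrsf9, Cd40, Tnfsf8 and Tnfsf9, beside 4.55% of all tested genes. Apart from Tnfsf10 these had 12 to 68 counts over both Pax5-/- samples. In 5 of 22 members, Tnf, Tnfsf8, Tnfrsf10b, Tnfrsf21 and Tnfrsf1b, the Pax5-/- samples lay on opposite sides of the wildtype, beside 14.8% of all tested genes.

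Of 67 listed genes that act with or below the receptors, superfamily genes outside the 36 included, 58 were tested, 1 was called higher and 9 lower, beside 9.53% higher and 8.55% lower over all tested genes, and the median log2 fold change was -0.20. With the biological coefficient of variation set to 0.4, 3 genes of these lists were called in place of 10. Bcl3 and Tnfrsf19 kept their calls and Mlkl was added, while Birc3, Traf5, Nfkbia, Nfkbie, Nfkb2, Tnfaip3, Rhbdf2 and Relt lost theirs.

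In the canonical NF-κB list 3 of 14 tested genes fell, beside 8.55% over all tested genes, 0 rose and 11 were not called. The median log2 fold change was -0.12, beside 0.0074 for all tested genes. The genes that fell encode inhibitors and an atypical member of the inhibitor family. Nfkbia, which encodes IκBα, was at 39.3 and 32.1 CPM in Pax5-/- against 113 CPM (log2 fold change -1.66, SE 0.18, adjusted p = 0.0118 by edgeR). Nfkbie, which encodes IκBε, was at 27.7 and 26.3 CPM against 68.7 CPM (log2 fold change -1.35, SE 0.14). Bcl3, an atypical IκB protein that binds NF-κB dimers in the nucleus, was at 1.85 and 0.44 CPM against 17.6 CPM (log2 fold change -3.94, SE 0.62). All 3 were lower than the wildtype in both Pax5-/- samples. Nfkb1 (log2 fold change -0.17, adjusted p = 0.399), Rela (-0.09, adjusted p = 0.696) and Rel (0.14, adjusted p = 0.650) were not called.

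In the alternative NF-κB list 1 of 3 genes fell, beside 8.55% over all tested genes. Nfkb2, which encodes the p100 precursor, was at 27.1 and 23.3 CPM against 53.1 CPM (log2 fold change -1.07, SE 0.17, adjusted p = 0.0248 by edgeR). Its partner gene Relb was at 11.7 and 9.10 CPM against 21.7 CPM and just missed the threshold (adjusted p = 0.0621), and the kinase gene Map3k14, which encodes NIK, was not called.

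Among 13 tested TRAF and death-domain adaptor genes, 2 fell, beside 8.55% over all tested genes, 0 rose and 11 were not called. The median log2 fold change was -0.43, beside 0.0074 for all tested genes. Birc3, which encodes the ubiquitin ligase cIAP2, was at 30.5 and 33.5 CPM against 72.0 CPM (log2 fold change -1.17, SE 0.14, adjusted p = 0.0154 by edgeR). Traf5, which encodes an adaptor of CD27, CD40 and other receptors, was at 8.17 and 10.7 CPM against 23.5 CPM (log2 fold change -1.31, SE 0.26, adjusted p = 0.0410). Traf5 also lost its call with library size alone and with DESeq2. RLE scaling and robust dispersion each called 6 of the adaptor genes, 2 higher (Fadd and Ripk1) and 4 lower. Of the 9 genes of ubiquitin ligases and editors, Tnfaip3 was the only 1 called, beside 18.1% of all tested genes. The gene encodes A20, a deubiquitinase that restrains NF-κB. Tnfaip3 was at 28.1 and 26.7 CPM against 44.1 CPM (log2 fold change -0.69, SE 0.15, adjusted p = 0.0489 by edgeR). That call was also lost with library size alone, DESeq2, limma-voom and the likelihood ratio test.

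In the caspase-8 and necroptosis list 0 of 9 genes were called by edgeR, 3 had an unadjusted p under 0.05, and DESeq2 called 1 and limma-voom 0. Mlkl, which encodes the pore-forming effector of necroptosis, was at 31.1 and 10.7 CPM against 2.96 CPM (log2 fold change 2.81, SE 0.86, adjusted p = 0.101 by edgeR). It was the gene called by DESeq2. Mlkl was also called with the likelihood ratio test and with the biological coefficient of variation set to 0.4. Its 2 Pax5-/- values stood 2.91-fold apart (exact 95% counting interval 2.21 to 3.85). Mlkl and the interferon-stimulated genes were highest in Pax5-/- sample 1. The lowest library was the wildtype for Mlkl and Pax5-/- sample 2 for the interferon-stimulated genes. The part of these genes in the Mlkl values was not tested.

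Among 8 tested genes of shedding and processing, only Rhbdf2 was called, beside 18.1% of all tested genes. It encodes iRhom2, which brings the TNF-shedding protease ADAM17 to the surface, and was at 28.8 and 24.6 CPM in Pax5-/- against 79.0 CPM (log2 fold change -1.56, SE 0.16, adjusted p = 0.0105 by edgeR). Adam17 itself had a log2 fold change of -0.06 and was not called. Of 10 superfamily genes outside the 36, 2 were tested and both were called, beside 18.1% of all tested genes. Tnfrsf19, which encodes TROY, was at 17.6 and 11.3 CPM against 116 CPM (log2 fold change -3.00, SE 0.28, adjusted p = 0.00853), and Relt, a receptor of lymphoid tissue, was at 45.2 and 55.3 CPM against 20.1 CPM (log2 fold change 1.32, SE 0.20, adjusted p = 0.0248). Cd40lg and Tnfsf18, the ligand genes of CD40 and GITR, had no counts in any library.

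**Figure D4:**
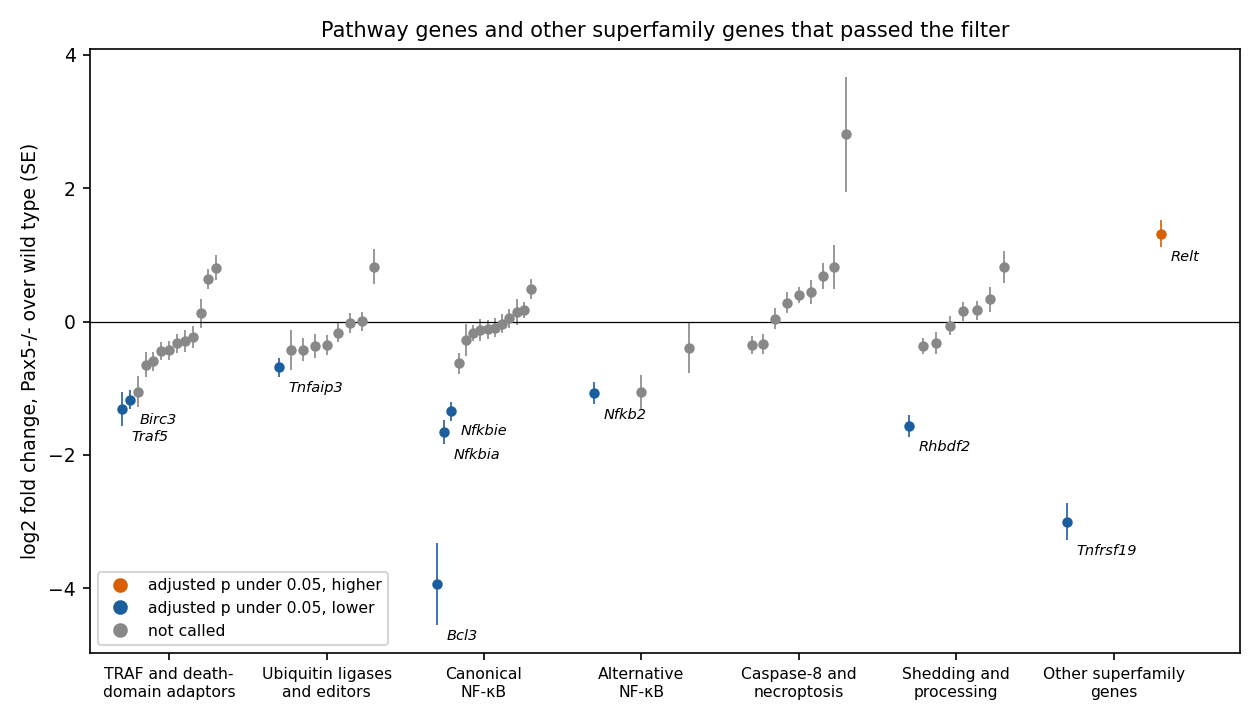
Log2 fold change, Pax5-/- (n = 2) over wildtype (n = 1), with SE, of the 58 tested pathway and other superfamily genes by list; colours mark the call at an adjusted p of 0.05 and labels name the 10 called genes. Relt is the only called gene above 0, and Bcl3 (-3.94) and Tnfrsf19 (-3.00) lie lowest.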

How the data were processed

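RNA-seq gene counts of 2 Pax5-/- samples and 1 wildtype sample were used. Per the submitters' processing notes, the authors made the deposited counts with featureCounts on mm10; its version, the aligner, the gene annotation and strandedness were not given in the sources used here. Counts are whole numbers per Entrez gene, not normalized, and a gene length in bases is given per the file headers. The series table held the same values in all 27179 genes. Symbols came from RefSeq (GRCm38.p6), with 25275 numbers matched.

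In R 4.3.3, edgeR 4.0.16 was run with filterByExpr (minimum count 10), TMM scaling, glmQLFit and glmQLFTest, with Benjamini-Hochberg adjustment over all 11783 genes tested and a threshold of 0.05. Each gene had 1 residual and 3.15 prior degrees of freedom, so the spread comes from the Pax5-/- samples and the lone wildtype is assumed to vary like them. SE is the coefficient over the root of F. CPM are TMM-scaled, the log2 CPM of single libraries used a prior count of 2, and the fit was tested on simulated data. Intervals and limits for a count of 0 cover counting error only, because no molecular identifiers mark independent molecules.

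The members, gene lists and named genes (all members; the called genes of each pathway list, up to 4, or the 2 with the smallest p; markers at 0) were chosen with earlier results of these data known, and motifs and further genes after values were seen. A few genes that the rule names are not reported here. Alternatives were RLE scaling, library size alone, other filters, other prior counts, DESeq2 1.42.0, limma-voom (limma 3.58.1), robust dispersion, the likelihood ratio test, an assumed biological coefficient of variation of 0.4 and leaving out each Pax5-/- sample. RefSeq promoters were searched in Python 3.11.15.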

Additional observations from a re-analysis of the deposited data

How the results depend on the processing

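The number of members called ran from 4 with DESeq2 to 7 with RLE scaling, no filter, robust dispersion and the likelihood ratio test, beside 6. Cd27, Tnfrsf1a, Tnfsf11 and Tnfrsf13c kept direction and call in all 9 alternatives with a test. With a biological coefficient of variation of 0.4 assumed, the genes called fell from 2130 to 1206 over all genes and from 10 to 3 in the pathway lists. The pathway lists rose to 15 called, 3 higher and 12 lower, with RLE scaling and with robust dispersion. Over all genes these settings called 2578 and 2594. With no filter and with the likelihood ratio test 13 pathway genes were called. Members 2-fold apart from the wildtype numbered 10 to 11 with a Pax5-/- sample left out, beside 7 with both; such a comparison of single samples has no test. Among members that were not called, the sign turned for Tnfrsf21 with library size alone (log2 fold change 0.0054), for Tnf with limma-voom (-0.043) and for Tnfsf8 with limma-voom (-0.36). Without Pax5-/- replicate 1 it turned for Tnfrsf10b (0.19), Tnfrsf21 (0.27), Tnf (-0.65), Tnfsf8 (-2.14) and Tnfrsf1b (-0.08), the members whose Pax5-/- samples lay on opposite sides of the wildtype. No paired analysis was possible because the labels name no pairs of samples between the groups. Without the filter 32 members were tested, and none of those below the filter was called; the 4 with no counts in any library could not be tested.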
